A study of Mus musculus with 8 samples.

Results

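The genes followed here in mouse hepatic stellate cells belong to bone morphogenetic protein (BMP) signalling: the receptor genes Bmpr1a, Bmpr2, Acvrl1 and Eng, the ligand genes Bmp2 and Bmp4, the response genes Id1, Id2 and Id3, and the inhibitory Smad6. The genes were chosen by symbol, and all 10 of the 10 symbols were found among the 14162 genes of the deposited table. Hepatic stellate cells store vitamin A in the healthy liver and become contractile, collagen-producing myofibroblasts on activation. RNA sequencing covered 4 groups of 2 libraries each, labelled a and b: activated cells with miR-15a (miR-15a cells), activated cells with a control microRNA (control microRNA cells, labelled miRcontrol), activated cells with neither (activated cells), and quiescent cells. The series was made to predict which genes miR-15a may target. All groups carry the label of hepatic stellate cells, and C57BL/6J and SCID mice are both named with no strain assigned to a library. The labels give neither the age of the mice, the way of activation, the way the microRNAs were given, nor the sequence of the control microRNA. Whether libraries a and b are separate animals or cultures is not stated either, so a p-value reflects only how far these libraries spread, which may be technical.

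BMP ligands bind pairs of type I and type II serine/threonine kinase receptors on the cell surface. The activated type I receptor phosphorylates SMAD1, SMAD5 and SMAD9, which join SMAD4 and switch on target genes, among them the ID genes and the gene of the inhibitor SMAD6. In the liver, BMP ligands from sinusoidal endothelial cells are known as the signal by which hepatocytes sense iron, while the receptor ALK1 (gene Acvrl1) and its co-receptor endoglin (gene Eng) are best known from the endothelium of blood vessels. ID proteins lack a DNA-binding domain and hold basic helix-loop-helix transcription factors in inactive pairs. In humans, heterozygous mutations of BMPR2, ACVRL1 or ENG cause hereditary vascular disease.

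Values are normalized scores as deposited, with library totals between 10193036 and 10234768. Because the sequencing depth is unknown, no counting interval can be attached. Scores are compared between groups for 1 gene at a time, or as sums over marker lists, where high-scoring genes weigh most. Levels are not compared between genes. Differences were tested with limma on log2(score + 5) over the 13150 genes that reached a score of 10 in at least 2 libraries. A gene was called where the Benjamini-Hochberg adjusted p was under 0.05. A log2 fold change is given ± its SE, with the first-named group on top, and adding 5 understates the change of genes with low scores. All 10 genes passed the filter. Bmp2 passed it through the miR-15a and quiescent libraries alone, and Bmp4 was under 10 in both quiescent libraries. The calls of Bmp2 on activation and with miR-15a, and of Bmp4 on activation, are therefore a description only. Exons of Bmpr1a, Acvrl1, Bmp4 and Eng share 290, 127, 89 and 61 bases with exons of a gene on the opposite strand (GENCODE M21, GRCm38), and no source used here says that strand was used in counting.

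The labelled cell type was checked against marker genes. Acta2, the smooth muscle actin of activated stellate cells, stood at 125636 and 58193 in miR-15a cells, at 125636 and 58193 in control microRNA cells, at 125636 in both activated libraries and at 43 and 51 in the quiescent libraries, where 125636 is the highest score in every library. Des, an intermediate filament gene of stellate cells, had 131 and 120 in the quiescent libraries. Lrat and Gfap were on the marker list but were not found in the deposited table. The quiescent libraries also held transcripts of other liver cells. Pecam1, an endothelial adhesion molecule, scored 2865 and 2570 in miR-15a cells, 18 and 48 in control microRNA cells, 32 and 0 in activated cells and 18666 and 20500 in quiescent cells. Emr1, the gene of the macrophage marker F4/80, scored 906 and 956 in miR-15a cells, 135 and 108 in control microRNA cells, 101 and 93 in activated cells and 14426 and 18666 in quiescent cells. Alb, the albumin gene of hepatocytes, scored 744 and 1056 in miR-15a cells, 48 and 640 in control microRNA cells, 118 and 162 in activated cells and 8724 and 7286 in quiescent cells. Endothelial and macrophage markers thus separated the miR-15a libraries from the control microRNA libraries as well as the quiescent from the activated ones.

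Over the whole endothelial list, 21 of 22 markers were in the table, and their summed score was 13255 to 13276 with miR-15a, 1036 to 1359 with the control microRNA, 666 to 920 in activated cells and 204840 to 273688 in quiescent cells. Of these 21 markers, 20 were called higher and 0 lower with miR-15a than with the control microRNA. All 21 were called lower in activated than in quiescent cells. Of all genes tested, 14.4% were higher in the first comparison and 34.1% lower in the second. Some of the markers, such as Sox17 and Sox18, stayed under 10 in every control microRNA and activated library. They were tested only because of their scores in the other groups, so both counts are a description only. No endothelial marker was at 0 in both libraries of any group, and 4 (Pecam1, Flt4, Sox17 and Sox18) were at 0 in 1 of the activated libraries, as was the macrophage marker Marco. The 19 macrophage markers in the table (of 20) summed to 16553 to 18089 with miR-15a, 2824 to 3104 with the control microRNA, 2246 to 2448 in activated cells and 167191 to 192641 in quiescent cells. Of these, 19 were called higher with miR-15a than with the control microRNA. Marco was at 4 or less in every control microRNA and activated library and was tested only through its other libraries. The macrophage count too is therefore a description only. The 16 hepatocyte markers in the table (of 20) summed to 1798 to 2518 with miR-15a, 336 to 1686 with the control microRNA, 455 to 605 in activated cells and 15267 to 18001 in quiescent cells. The sex-linked genes also differed between groups: Xist, expressed from the inactive X chromosome of females, scored 3373 and 3373 in miR-15a cells, 3373 and 5027 in control microRNA cells, 169 and 21 in activated cells and 8724 and 8724 in quiescent cells. Ddx3y, a Y-linked gene, scored 1046 and 1006 in miR-15a cells, 1282 and 1268 in control microRNA cells, 2606 and 2570 in activated cells and 44 and 40 in quiescent cells, and the labels give no sex. The animals behind the groups may thus differ along with status and treatment, and their part in the comparisons below was not tested. In these bulk libraries, fewer cells of a type and less RNA per cell cannot be told apart.

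The sequence of the microRNA shows which 3′ UTRs it could pair with. Mature mouse miR-15a-5p (RefSeq, GRCm38.p6, chr14:61632075-61632096, minus strand) is printed with its seed, bases 2 to 8, in capitals.
mmu-miR-15a-5p: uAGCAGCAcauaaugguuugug
The complement of the seed, TGCTGCT, was searched for in every gene's longest 3′ UTR in the GENCODE M21 annotation of GRCm38. It was found in 3 of the 10 genes (30.0%), all of them receptor genes, against 2994 of 12533 genes of the table with an annotated 3′ UTR (23.9%). The 5 sites are printed 5′ to 3′ on the transcript strand with 11 bases on either side, and capitals mark the seed match.
Bmpr1a: atggcaaacgcTGCTGCTtttccttattt
Bmpr2, first site: gtagcttctggTGCTGCTgtaccttgatg
Bmpr2, second site: agaataatagcTGCTGCTtcctagctact
Eng, first site: gtgcacacccaTGCTGCTtagaagcctaa
Eng, second site: tcagttctctcTGCTGCTtgctcatttgg
The Bmpr1a site lies at chr14:34412620-34412626 (minus strand) in exon 13 of 13, at position 1918 of a 3′ UTR of 3810 bases, and is present in 1 of 2 annotated transcripts. The Bmpr2 sites lie at chr1:59871860-59871866 and chr1:59877774-59877780 (plus strand) in exon 13 of 13, at positions 1375 and 7289 of a 3′ UTR of 8529 bases. The Eng sites lie at chr2:32681828-32681834 and chr2:32682250-32682256 (plus strand) in exon 15 of 15, at positions 267 and 689 of a 3′ UTR of 1108 bases. The first Eng site is present in 3 of 3 annotated transcripts and the second in 2 of 3. None of the 5 sites is followed by an A on the transcript. Acvrl1, with a 3′ UTR of 1859 bases, matches only the 6-base site GCTGCT, as do 20.1% of genes of the table. The 6-base site, with or without the longer match that contains it, was in 44.0%. The 3′ UTRs of Bmp2 (1170 bases), Bmp4 (339), Id1 (563), Id2 (785), Id3 (536) and Smad6 (448) hold neither match, and the median over all genes was 1166 bases. Whether miR-15a binds any of these letters was not measured.

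With miR-15a set against the control microRNA, the receptor gene Bmpr1a and the ligand gene Bmp4 were lower, the ligand gene Bmp2 and the receptor gene Acvrl1 were higher, Smad6 was slightly lower, and none of the 3 ID genes was called. That is 2 genes higher and 3 lower of 10 (5 called in all, 3 without control microRNA library b, 2 higher and 2 lower after median-ratio scaling), in a comparison in which 29.9% of all genes tested were called (1897 higher and 2029 lower; 2311 and 1584 after median-ratio scaling). The median log2 fold change was 0.02 over the 10 genes and -0.07 over all genes tested. On activation, all 10 genes were called, 4 higher and 6 lower than in quiescent cells (3 and 6 after median-ratio scaling), where 79.5% of all genes were called (5968 higher and 4483 lower; 4775 and 5414 after median-ratio scaling). There the median was -0.91 over the 10 genes and 0.21 over all genes, and median-ratio scaling moved the median of all genes by -0.267.

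Activated cells without a microRNA were a further group for comparison. Their Xist and Ddx3y scores differed from those of both microRNA groups, and the part of the source of the cells in these comparisons was not tested. Relative to activated cells, miR-15a cells had 3 of the 10 genes higher and 3 lower (6 and 2 after median-ratio scaling), where 38.4% of all genes were called (2204 higher and 2841 lower; 3113 and 1645 after median-ratio scaling, which moved the median by 0.136). The control microRNA itself went with 3 higher and 1 lower of the 10 genes relative to activated cells (4 called in all, 2 without activated library a or b), where 13.8% of all genes were called (944 higher and 869 lower; 1371 and 494 after median-ratio scaling). These comparisons share libraries: miR-15a enters 2 of them, the control microRNA 2 and the activated cells 3. Their values are therefore set side by side, and no overlap between them is counted.

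**Figure D1:**
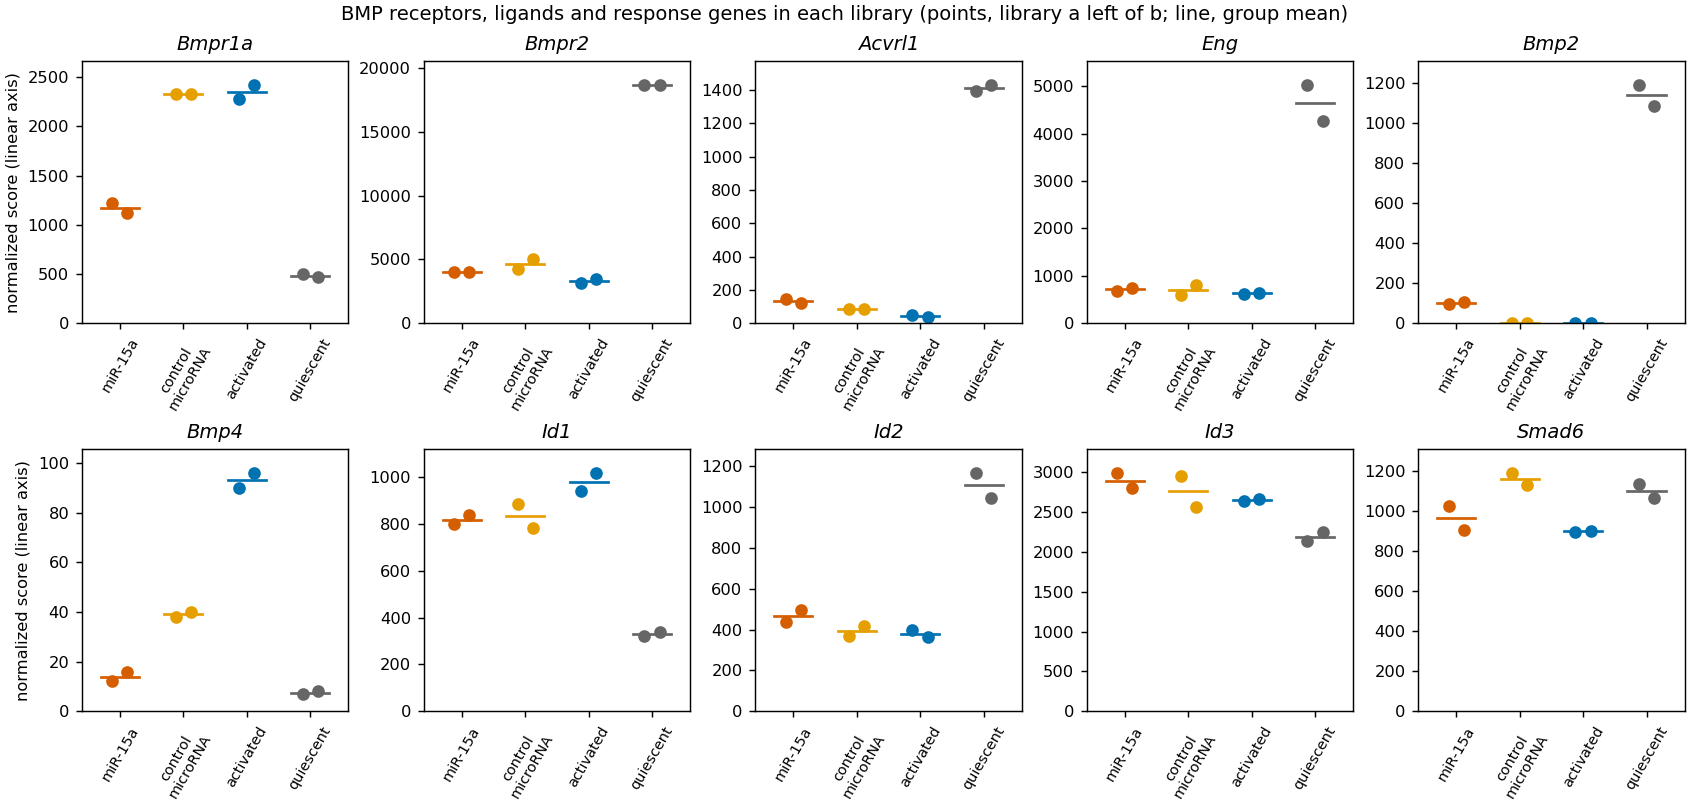
Normalized score (vertical, linear axis from 0, a separate scale per gene) of the 10 genes in each of the 8 libraries, by group; points are libraries, a left of b, and lines are group means. Bmpr1a sits at 1118 to 1222 with miR-15a and at 2330 in both control microRNA libraries, and Bmp2 is near 100 with miR-15a and at 3 or less with the control microRNA and in activated cells.

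Bmpr1a (chr14:34410734-34503341, minus strand, GRCm38) encodes ALK3, a type I receptor for BMP2 and BMP4. It scored 1222 and 1118 in miR-15a cells, 2330 and 2330 in control microRNA cells, 2276 and 2422 in activated cells and 496 and 468 in quiescent cells. No library of the miR-15a or quiescent group overlapped with another group, while the control microRNA and activated libraries lay together. Expression was lower with miR-15a than with the control microRNA (log2 fold change -0.99 ± 0.07, adjusted p = 6.01e-05, limma), and its mean score was 0.502 of that with the control microRNA. Relative to activated cells the mean with miR-15a was 0.498 of theirs, which was also called lower (adjusted p = 4.03e-05). Between the control microRNA and activated cells the log2 fold change was -0.01 ± 0.07 (adjusted p = 0.935). Activated cells were 2.27 ± 0.07 above quiescent cells (adjusted p = 6.05e-08), and with miR-15a the gene still stood at 243% of the quiescent mean, against 483% with the control microRNA. Bmpr1a carries 1 of the 5 sites printed above. Of the 14 myofibroblast markers, 5 were called lower and 0 higher with miR-15a than with the control microRNA (4 and 0 after median-ratio scaling). Of all genes tested, 15.4% were lower there. With the control microRNA against activated cells, 6 of the 14 were lower and 0 higher (4 and 0 after that scaling), where 6.61% of all genes were lower. The part of the other cell types in the Bmpr1a difference was not tested.

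Bmpr2 (chr1:59763400-59879014, plus strand) encodes the type II BMP receptor that phosphorylates the type I receptor. Its score was 3996 and 3996 in miR-15a cells, 4266 and 5029 in control microRNA cells, 3168 and 3448 in activated cells and 18677 and 18677 in quiescent cells. High scores lie on steps shared by all libraries, so equal values within a group may understate its spread. Quiescent libraries were far above the others, and the 3 activated groups lay close together without overlapping. Between miR-15a and the control microRNA the log2 fold change was -0.21 ± 0.08 (adjusted p = 0.0978, limma), which is not a call, and the gene holds 2 seed matches. Without control microRNA library a it was -0.33 (adjusted p = 0.0122). Activated cells were below quiescent cells (-2.50 ± 0.08, adjusted p = 1.08e-07). Relative to activated cells, Bmpr2 was higher with miR-15a (0.27 ± 0.08, adjusted p = 0.0375), and so it was in the control microRNA libraries (0.49 ± 0.08, adjusted p = 0.0129). The first of these calls was lost under 7 of 15 alternatives, among them each omission of an activated, miR-15a or quiescent library, and the second when activated library a was left out (adjusted p = 0.0779) and when only the groups compared were fitted (adjusted p = 0.0844).

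Acvrl1 (chr15:101128522-101145336, plus strand) encodes ALK1, the type I receptor for BMP9 and BMP10. It scored 143 and 124 in miR-15a cells, 85 and 88 in control microRNA cells, 48 and 36 in activated cells and 1396 and 1431 in quiescent cells. The 4 groups did not overlap, and each step of their order passed the test. Acvrl1 was higher with miR-15a than with the control microRNA by 0.59 ± 0.14 (adjusted p = 0.0187, limma) and than in activated cells by 1.57 ± 0.14 (adjusted p = 0.000182). The control microRNA was itself above activated cells by 0.97 ± 0.14 (adjusted p = 0.00692), and activated cells were below quiescent cells (-4.93 ± 0.14, adjusted p = 5.12e-08). The call between miR-15a and the control microRNA was lost without miR-15a library a (0.50, adjusted p = 0.0969), without control microRNA library a (0.57, adjusted p = 0.0648) and without control microRNA library b (0.62, adjusted p = 0.0651). The call between the control microRNA and activated cells was lost when only those groups were fitted (adjusted p = 0.0755). As percent of the quiescent mean, Acvrl1 was at 9.44 with miR-15a, 6.12 with the control microRNA and 2.97 in activated cells, beside 5.54, 0.500 and 0.331 for the summed endothelial markers. High-scoring markers weigh most in that sum, and with miR-15a single endothelial markers ran from 0.392 (Stab2) to 47.1 (Emcn) percent. The part of endothelial RNA in the Acvrl1 result was not tested.

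Eng (chr2:32646595-32682669, plus strand) encodes endoglin, the co-receptor that works with ALK1. It scored 688 and 738 in miR-15a cells, 588 and 799 in control microRNA cells, 622 and 646 in activated cells and 5027 and 4265 in quiescent cells. The miR-15a libraries fell between the control microRNA libraries, and quiescent cells stood apart from every other group. The log2 fold change was 0.06 ± 0.14 between miR-15a and the control microRNA (adjusted p = 0.8, limma), with 2 seed matches in the 3′ UTR, and its sign turned to -0.16 without control microRNA library a. Activated cells were lower than quiescent cells (-2.86 ± 0.14, adjusted p = 8.59e-07). Eng stood at 15.3, 14.9 and 13.6 percent of the quiescent mean in miR-15a, control microRNA and activated cells. In the same order the summed endothelial markers stood at 5.54, 0.500 and 0.331 percent. Single endothelial markers ran from 0.392 (Stab2) to 47.1 (Emcn) percent with miR-15a, and from 0.0260 (Clec4g) to 14.2 (Emcn) with the control microRNA.

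The ligand genes moved in opposite directions in each of the 3 comparisons in which both were called. Bmp2 (chr2:133552159-133562885, plus strand), a ligand of ALK3 produced by several liver cell types, scored 96 and 104 in miR-15a cells, 1 and 3 in control microRNA cells, 3 and 2 in activated cells and 1191 and 1086 in quiescent cells. It was at 3 or less in every control microRNA and activated library, and these groups overlapped. Bmp2 was higher with miR-15a than with the control microRNA by 3.92 ± 0.18 (adjusted p = 1.05e-05, limma) and than in activated cells by 3.81 ± 0.18 (adjusted p = 9.27e-06). Because the lower scores lie under the added 5, these sizes depend on it: the first was 5.16 with 1 added and 2.45 with 20 added, the second 4.86 and 2.41, and all stayed called. Activated cells were below quiescent cells (-7.25 ± 0.18, adjusted p = 2.87e-08). Bmp2 was tested only because of its scores in the quiescent and miR-15a libraries, so its calls in these directions are a description only. With miR-15a, Bmp2 stood at 8.78 percent of the quiescent mean, against 0.176 with the control microRNA and 0.220 in activated cells. The summed macrophage markers stood at 9.63, 1.65 and 1.30 percent in the same order, and the endothelial ones at 5.54, 0.500 and 0.331. With miR-15a, single macrophage markers ran from 2.34 (Csf1r) to 48.5 (Msr1) percent and endothelial ones from 0.392 (Stab2) to 47.1 (Emcn). The part of these cell types in the Bmp2 result was not tested.

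Bmp4 (chr14:46383520-46390669, minus strand), the other ligand of ALK3 in the set, scored 12 and 16 in miR-15a cells, 38 and 40 in control microRNA cells, 90 and 96 in activated cells and 7 and 8 in quiescent cells. The groups did not overlap, and the order from activated through control microRNA and miR-15a to quiescent cells passed the test at every step. Bmp4 fell with miR-15a relative to the control microRNA (-1.22 ± 0.17, adjusted p = 0.00219, limma; -0.80 with 20 added in place of 5). It was also lower with the control microRNA than in activated cells (-1.15 ± 0.17, adjusted p = 0.00762; 0.0541 without activated library b). Relative to activated cells, miR-15a cells were at -2.37 ± 0.17 (adjusted p = 5.74e-05). Activated cells were 2.97 ± 0.17 above quiescent cells (adjusted p = 1.95e-06). The 3′ UTR of Bmp4 holds no seed match.

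**Figure D2:**
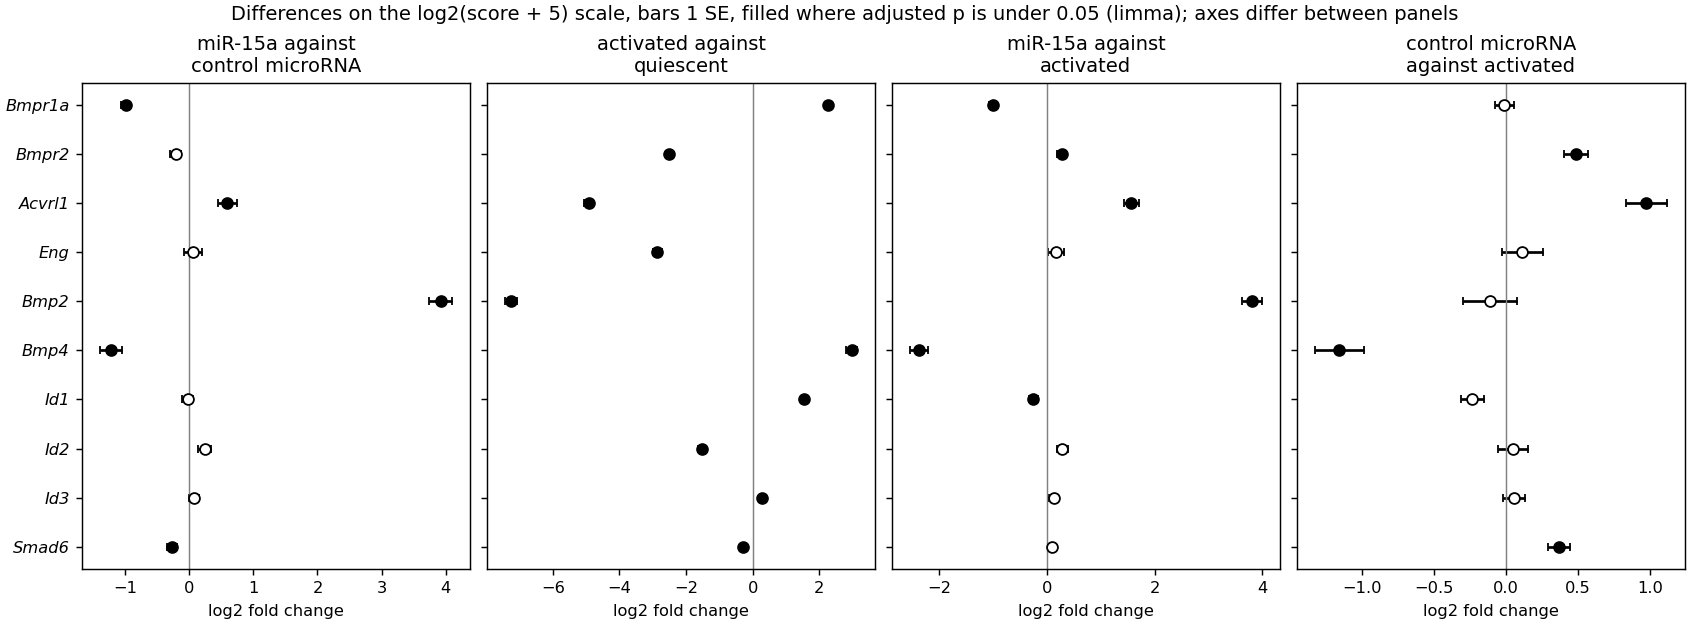
Log2 fold change on the log2(score + 5) scale (horizontal, a separate scale per panel) of the 10 genes in 4 comparisons, with bars of 1 SE and filled points where the limma adjusted p is under 0.05. With miR-15a against the control microRNA, Bmp2 stands at 3.92 and Bmp4 at -1.22, and the points of Id1, Id2 and Id3 are open.

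On activation Id1 and Id3 were called higher and Id2 lower, and none of the 3 was called between the microRNAs. Id1 (chr2:152736251-152737410, plus strand), the best known early target of BMP receptors, scored 799 and 838 in miR-15a cells, 885 and 782 in control microRNA cells, 940 and 1019 in activated cells and 322 and 338 in quiescent cells. The microRNA groups overlapped, with a log2 fold change of -0.02 ± 0.08 (adjusted p = 0.852, limma), a sign that turned to 0.04 with median-ratio scaling. Activated cells were above quiescent cells by 1.55 ± 0.08 (adjusted p = 1.19e-06). Id1 was called lower with miR-15a than in activated cells (-0.26 ± 0.08, adjusted p = 0.0434), a call lost under 9 of 15 alternatives, among them each omission of an activated, miR-15a or quiescent library, with adjusted p between 0.0303 and 0.31 over all 15. With median-ratio scaling it was -0.11.

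Id2 (chr12:25093799-25097140, minus strand) ran against Id1. It scored 436 and 496 in miR-15a cells, 370 and 418 in control microRNA cells, 396 and 364 in activated cells and 1168 and 1046 in quiescent cells. All libraries of the 3 activated groups were under 500 and both quiescent ones over 1000. Activated cells were lower than quiescent cells (-1.53 ± 0.10, adjusted p = 4.51e-06, limma). Between miR-15a and the control microRNA the difference was 0.24 ± 0.10 (adjusted p = 0.123), and between miR-15a and activated cells it was 0.29 ± 0.10 (adjusted p = 0.0604; 0.43 and called at 0.015 with median-ratio scaling).

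Id3 (chr4:136143497-136145755, plus strand) spanned a narrower range than Id1 or Id2. It scored 2992 and 2801 in miR-15a cells, 2954 and 2570 in control microRNA cells, 2640 and 2670 in activated cells and 2133 and 2250 in quiescent cells. The 3 activated groups overlapped or nearly touched, and the quiescent libraries were the lowest. The call on activation was small (0.28 ± 0.08, adjusted p = 0.0117, limma) and rested on the deposited scaling: with median-ratio scaling the value was -0.0022 (adjusted p = 0.98). It was also lost without activated library b (adjusted p = 0.0538) and without quiescent library a (adjusted p = 0.0688). Between miR-15a and the control microRNA the difference was 0.07 ± 0.08 (adjusted p = 0.528).

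Smad6 (chr9:63953076-64022059, minus strand) encodes an inhibitory SMAD that blocks BMP receptors and is itself induced by BMP signalling. It scored 1024 and 906 in miR-15a cells, 1191 and 1130 in control microRNA cells, 896 and 902 in activated cells and 1138 and 1064 in quiescent cells. The values spanned a narrow range, and no neighbouring groups in the order control microRNA, quiescent, miR-15a and activated differed in the test (adjusted p = 0.391, 0.0536 and 0.337, limma). Smad6 was called lower with miR-15a than with the control microRNA (-0.27 ± 0.08, adjusted p = 0.0348), and this call was lost under 10 of 15 alternatives, 7 of them the omission of a library other than miR-15a library a, with adjusted p between 0.026 and 0.153 over all 15. It was called higher with the control microRNA than in activated cells (0.37 ± 0.08, adjusted p = 0.0243), which was lost under 5 alternatives. Those were the fit of only the groups compared (adjusted p = 0.0611) and the omission of activated library a (0.111) or b (0.113) or of control microRNA library a (0.0695) or b (0.0653). Activated cells were lower than quiescent cells (-0.29 ± 0.08, adjusted p = 0.00877; -0.57 with median-ratio scaling; 0.0581 without quiescent library a).

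**Figure D3:**
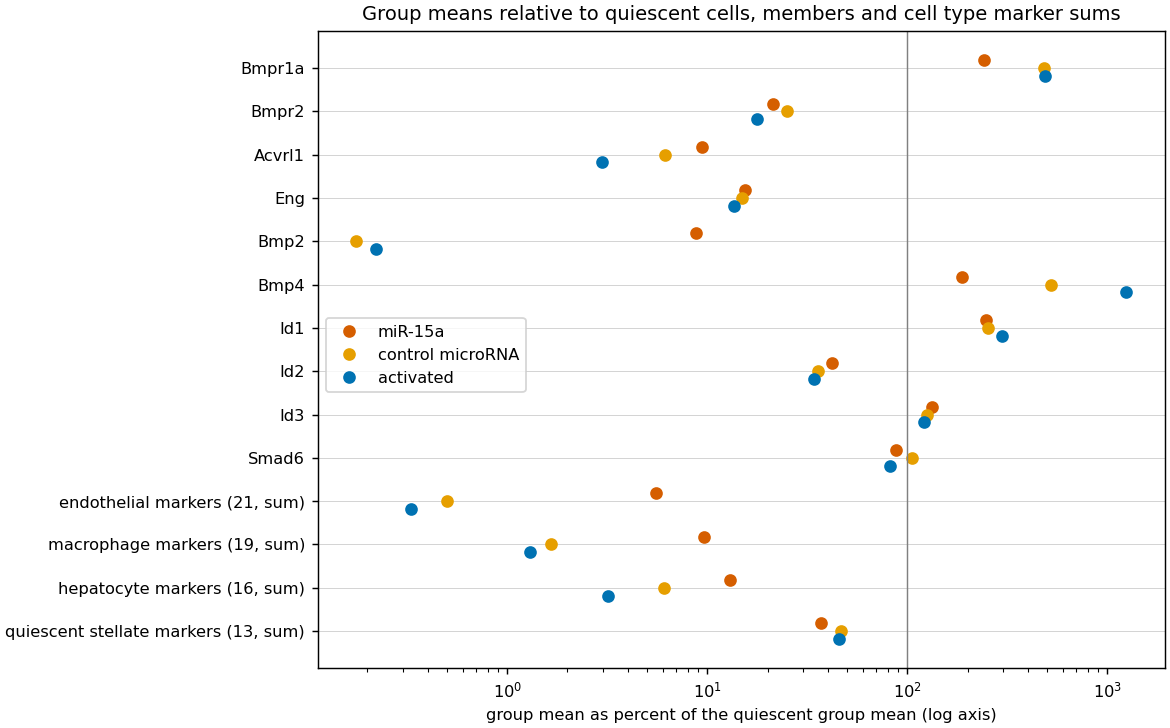
Group mean as percent of the quiescent mean (horizontal, log axis) for the 10 genes and for the summed scores of 4 cell type marker lists, with 1 point for each of the miR-15a, control microRNA and activated groups; the line marks 100 percent. Bmp2 lies at 8.78 percent with miR-15a and at 0.176 with the control microRNA, the endothelial sum at 5.54 and 0.500, and Eng at 15.3 and 14.9.

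The other genes of the pathway were taken from a list of 69, of which 39 were in the table and 37 were tested. Bmp8b and Chrdl1 stayed at 7 or less in every library and were not tested. With miR-15a against the control microRNA, 9 were higher and 12 lower (13 and 9 after median-ratio scaling), with a median of -0.21. On activation, 16 were higher and 19 lower (13 and 20 after median-ratio scaling), with a median of -0.34. With miR-15a against activated cells 13 were higher and 9 lower (15 and 6 after median-ratio scaling), and with the control microRNA against activated cells 4 were higher and 2 lower (6 and 1 after that scaling). With median-ratio scaling Acvr1, Crim1 and Smurf1 were no longer called on activation and Smurf2 was called lower. Between miR-15a and the control microRNA, calls lost under that scaling included Chrd and Ski, while Gdf15, Nbl1, Smad1 and Skil were called higher. The shares called over all genes, given above for each comparison, are the background for these counts.

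Among the genes listed as ligands, Bmp5, Bmp6 and Bmp10 shared the direction of Bmp2. Of 4 tested, these 3 were lower on activation and higher with miR-15a than with the control microRNA. Gdf15, on the list but not a BMP by name, was higher on activation. Bmp10, at 4 or less in every control microRNA and activated library, passed the filter through the miR-15a and quiescent libraries alone. It was tested only because of its scores in those libraries, and the count is a description only. Bmp6, known as the endothelial BMP of the iron response, scored 214 and 281 in miR-15a cells, 28 and 16 in control microRNA cells, 18 and 1 in activated cells and 1308 and 1322 in quiescent cells. It was higher with miR-15a than with the control microRNA by 3.25 ± 0.55 (adjusted p = 0.00498, limma) and lower on activation (-6.81 ± 0.55, adjusted p = 1.35e-05). These genes too moved with the endothelial and macrophage markers given above, and the part of those cell types was not tested.

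The extracellular antagonists and modulators, which bind BMPs or related ligands outside the cell, ran the other way. Of 9 tested, 9 were higher on activation, and 0 were higher and 6 lower with miR-15a than with the control microRNA. After median-ratio scaling these counts were 8 higher on activation, Crim1 turning to -0.07, and 1 higher (Nbl1) and 4 lower with miR-15a. Some of these genes, such as Chrd and Fst, were under 10 in both quiescent libraries and entered the test through the other groups. They were tested only because of their scores there, and the count is a description only. Fstl1, a secreted follistatin-like glycoprotein, was at 24105 in both miR-15a libraries, 42360 in every control microRNA and activated library and 438 and 447 in quiescent cells (6.56 ± 0.05 on activation, adjusted p = 5.18e-10, limma). As with Bmpr2, its equal high scores lie on steps shared by all libraries and may understate the spread. Fst, the gene of the activin and BMP binding protein follistatin, scored 539 and 512 in miR-15a cells, 1036 and 876 in control microRNA cells, 515 and 500 in activated cells and 7 and 4 in quiescent cells. Its fall with miR-15a relative to the control microRNA (-0.85 ± 0.15, adjusted p = 0.00566) stood beside 0.05 ± 0.15 for miR-15a relative to activated cells (adjusted p = 0.815) and 0.90 ± 0.15 for the control microRNA relative to activated cells (adjusted p = 0.0111).

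Of the 5 SMAD genes tested, 1 was higher and 4 were lower on activation, and 0 were higher and 1 lower with miR-15a than with the control microRNA (1 and 1 after median-ratio scaling). The gene lower with miR-15a was Smad9, a signal-carrying SMAD of the BMP branch, which was under 10 in both quiescent libraries and passed the filter through the other groups. Smad9 scored 40 and 50 in miR-15a cells, 112 and 98 in control microRNA cells, 80 and 80 in activated cells and 0 and 4 in quiescent cells (-1.14 ± 0.28 with miR-15a against the control microRNA, adjusted p = 0.0196, limma). Of the 8 other receptors and co-receptors tested, 2 were higher and 5 lower on activation (1 and 5 after median-ratio scaling). With miR-15a against the control microRNA, 1 was higher and 2 were lower under either scaling. Of the 7 intracellular regulators, 2 were higher and 4 lower on activation (1 and 5 after median-ratio scaling), and 2 were higher and 3 lower with miR-15a, a balance that turned to 3 higher and 2 lower after that scaling. Of the 4 other response genes, 1 was higher and 3 lower on activation, and 3 were higher and 0 lower with miR-15a. Tal1 and Lmo2, with at most 1 control microRNA or activated library at 10 or above, passed the filter through their miR-15a and quiescent libraries, so these counts too are a description only. Lmo2, a transcription cofactor of blood and endothelial cells, was among those 3, with 96 and 115 in miR-15a cells, 10 and 8 in control microRNA cells, 7 and 6 in activated cells and 625 and 575 in quiescent cells. Lmo2 was higher with miR-15a than with the control microRNA by 2.98 ± 0.16 (adjusted p = 1.95e-05, limma) and lower on activation (-5.72 ± 0.16, adjusted p = 4.62e-08). Because Lmo2 was tested only through its miR-15a and quiescent libraries, both of its calls are a description only. Id4, the remaining member of the ID family, was another of the 3, with 104 and 90 in miR-15a cells, 26 and 29 in control microRNA cells, 35 and 26 in activated cells and 1168 and 1068 in quiescent cells. It was higher with miR-15a than with the control microRNA (1.65 ± 0.16, adjusted p = 0.000359) and lower on activation (-4.99 ± 0.16, adjusted p = 8.37e-08). Tal1, Lmo2 and Id4 thus moved in the direction of the endothelial and macrophage markers given above. The part of those cell types in the response genes was not tested.

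**Figure D4:**
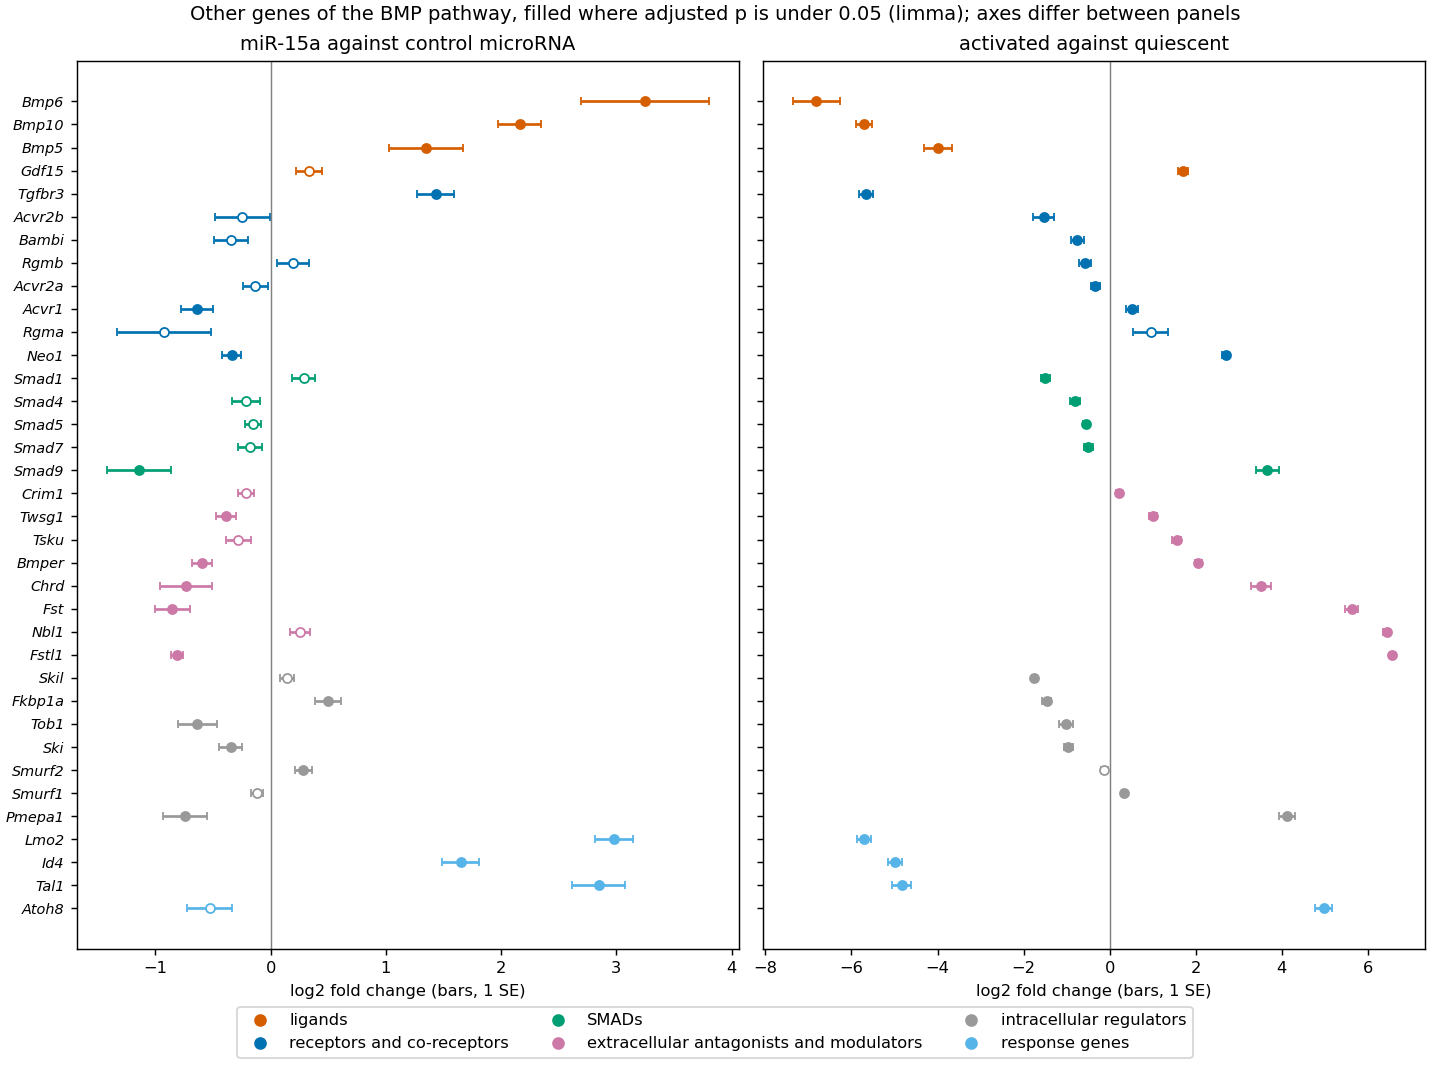
Log2 fold change on the log2(score + 5) scale (horizontal, bars 1 SE, a separate scale per panel) of the other BMP pathway genes tested, 1 left out, coloured by role, filled where the limma adjusted p is under 0.05. Antagonists such as Fstl1 (6.56) lie to the right on activation, and Bmp6 lies at 3.25 with miR-15a against the control microRNA and at -6.81 on activation.

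For each of the 10 genes, the tested genes with the most similar profile over the 8 libraries were ranked by Pearson r of log2(score + 5) among 12205 named genes. These values are descriptions over 4 groups of 2 libraries with no test, since libraries of a group share their treatment and all 8 share the scaling. Nearest to Bmpr1a were Csgalnact1 (r = 0.998), Lpgat1 and Tln2, and Csgalnact1 scored 258 and 244 in miR-15a cells, 332 and 340 in control microRNA cells, 333 and 348 in activated cells and 158 and 158 in quiescent cells. Bmpr2 was nearest to Kdm2a (r = 0.999), Patl1 and Irak3, Acvrl1 to Ezr (r = 0.999) and Slc45a3, and Eng to Smcr8 (r = 0.998), Zfp335 and Clcn6. Bmp2 was nearest to Lilrb4 (r = 0.9995), Ushbp1 and Bcl2a1b. Lilrb4 scored 308 and 364 in miR-15a cells, 60 and 72 in control microRNA cells, 71 and 62 in activated cells and 1322 and 1353 in quiescent cells, and it and Bcl2a1b have close paralogs between which reads may be split. Bmp4 was nearest to Prkg1 (r = 0.995), Map2 and Lama2. Prkg1 scored 428 and 442 in miR-15a cells, 734 and 708 in control microRNA cells, 1046 and 1124 in activated cells and 306 and 355 in quiescent cells. Id1 was nearest to Ano10 (r = 0.999), Jam3 and Cwc15, Id2 to Slc25a33 (r = 0.997), Tmem86a and Hmox1, and among the nearest to Id3 were Prdm4 (r = 0.986) and Rnaseh2a. The likeness was weakest for Smad6, whose nearest genes were Gstt1 (r = 0.950), Ppp1r3c and C1ra. No gene of the set was among the nearest 3 of another.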

How the data were processed

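The deposited table, named as read counts, holds whole-number values of 8 libraries. Per the submitters' processing notes, STAR, Subread, featureCounts and the build mm10 were used, without versions. All libraries hold the same 910 distinct values, so the deposited values were treated as a normalized score. The normalizing step is recorded in no label or file header and the depth is unknown. Every column was matched to 1 library by its name, and 0 columns were left out.

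limma 3.58.1 (R 4.3.3) was fitted to log2(score + 5) with 4 group means over all 8 libraries, 4 residual degrees of freedom, a variance prior following the mean level and Benjamini-Hochberg adjustment over 13150 genes at 10 or more in at least 2 libraries. The procedure was tested on simulated data. Alternatives covered the pseudocount, filter, scaling, samples in the fit, replicate block, variance prior, a fold limit and each library left out.

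The 10 genes, the other lists, the tests and the search for seed sites were chosen with earlier results of these data known, so no list is independent support. Other BMP genes given with values were the 2 largest increases and 2 largest decreases among called genes on activation and with miR-15a against the control microRNA. The 3 genes of highest Pearson r to each of the 10, unnamed gene models left out, and Pecam1, Emr1 (listed as Adgre1), Alb and Acta2 were also named. Des, Flt4, Sox17, Sox18, Marco, Xist, Ddx3y, Id4, Chrd, Crim1, Nbl1, Gdf15, Acvr1, Smurf1, Smurf2, Smad1, Skil, Bmp5, Bmp8b, Bmp10 and Chrdl1, and the genes with seed matches in the closing section, were named after their values were seen. Sequences come from RefSeq (GRCm38.p6) and GENCODE M21 transcripts (GRCm38). A few genes that these rules would name are not reported here.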

Additional observations from a re-analysis of the deposited data

How the results depend on the processing

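Of the 25 called member values, 15 stayed called in the same direction under the 15 alternatives that refit the model, and 10 lost the call under at least 1; the fold limit is not among these 15. Requiring a log2 fold change over 1 left 898 genes and 2 of the 10 for miR-15a against the control microRNA, 6020 genes on activation, 1177 genes for miR-15a against activated cells, and 322 genes and 1 of the 10 for the control microRNA against activated cells. Fitting only the groups compared left 2093 genes for miR-15a against the control microRNA, and 276 genes and 1 of the 10 for the control microRNA against activated cells. Leaving out 1 library gave 2375 to 3613 genes and 3 to 4 of the 10 for miR-15a against the control microRNA, 2764 to 5128 genes for miR-15a against activated cells, and 490 to 1688 genes and 2 to 4 of the 10 for the control microRNA against activated cells. Counts of genes moved by over 1.5 times without miR-15a library b (2375) or control microRNA library b (2381) in the first, without activated library a (3346) or b (2764) or miR-15a library b (3302) in the second, and without activated library a (683) or b (490), control microRNA library b (669) or quiescent library a (1194) in the third.

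Signs turned in 1 called value, Id3 on activation (-0.0022 with median-ratio scaling), and otherwise only in values that were not called. With median-ratio scaling these were Id1 for miR-15a against the control microRNA (0.038) and Bmpr1a for the control microRNA against activated cells (0.072). With 1 library left out, the log2 fold change for miR-15a against the control microRNA lay between -0.16 and 0.28 for Eng, -0.11 and 0.065 for Id1 and -0.029 and 0.17 for Id3. For the control microRNA against activated cells it lay between -0.32 and 0.096 for Bmp2, -0.056 and 0.034 for Bmpr1a, -0.11 and 0.33 for Eng, -0.037 and 0.14 for Id2 and -0.047 and 0.15 for Id3.

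Library letters do not mark shared animals in the labels, and deviations of same-letter libraries correlated at -0.0666 to 0.0872 between groups, so the letters were not treated as pairs. With the letter as a replicate block, 3776 genes and 5 of the 10 were called for miR-15a against the control microRNA, 10399 and 10 on activation, 4743 and 5 for miR-15a against activated cells (Id1 being lost), and 1490 and 4 for the control microRNA against activated cells. Leaving out a library leaves 1 in its group, which is then assumed to vary like the others. Scores on shared steps and the unknown depth limit what small differences can show.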

Other observations

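Of the 37 other BMP pathway genes tested, 16 hold the 7-base miR-15a seed match in the longest annotated 3′ UTR and 21 do not. With miR-15a against the control microRNA, 2 of the 16 genes with a match were called higher and 4 lower (25.0% lower, median log2 fold change -0.20), while 7 of the 21 without one were called higher and 8 lower (38.1% lower, median -0.28). The median 3′ UTR was 2725 bases long in the genes with a match and 1514 in those without. Among the 4 genes with a match that were lower were Fstl1 (-0.81), Pmepa1 (-0.74) and Ski (-0.35), and the 2 that were higher were Tgfbr3 (1.43), the co-receptor betaglycan, and Fkbp1a (0.50). These counts are a description and were not tested. Among the receptor genes with a match, Bmpr1a stood at -0.99, Bmpr2 stood at -0.21 and Eng at 0.06, so of these 3 genes only Bmpr1a was called.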
